A study of Mus musculus with 10 samples.

Results

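*Fgfr1*, *Fgfr2*, *Fgfr3*, *Fgfrl1*, *Fgf2*, *Fgf18*, *Dusp6*, *Etv4* and *Etv5* were followed through single cells of 2 skeletal lineages of the mouse hind limb. They were chosen by name, as receptors, ligands and response genes of fibroblast growth factor (FGF) signalling, and are 9 of the 29183 genes that both deposited count tables list. Cells came from C57BL/6 mice with a Rosa-TdTomato reporter that a Cre recombinase switches on, so that a labelled cell and its progeny stay red. In *Grem1-TdT* mice the recombinase was *Grem1-creERT*, which needs tamoxifen, given here in chow for 2 weeks from 5 to 6 weeks of age. In *Lepr-TdT* mice of paired age it was *Lepr-cre*, which is constitutive, so that cells whose ancestors expressed *Lepr* were labelled as well. Articular cartilage (AC) and growth plate (GP) were cut out of *Grem1-TdT* limbs, whereas the bones of *Lepr-TdT* mice were taken whole and their CD45, Ter119 and CD31 positive cells sorted out. Red cells were sorted singly into plates, 8 for the *Grem1* lineage and 2 for the *Lepr* lineage. The labels do not say which plate holds AC or GP cells, nor which mice went into which plate, so p-values over plates measure only the spread between plates, which may be technical.

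FGF ligands bind receptor tyrosine kinases on the cell surface together with heparan sulphate, and the kinases pass the signal on mainly through the RAS and ERK cascade. *Etv4* and *Etv5*, which encode ETS transcription factors, and *Dusp6*, which encodes a phosphatase that switches ERK off again, are widely used as readouts of that cascade. In cartilage, FGFR3 is known for its brake on growth plate chondrocytes, FGF18 is one of its ligands, and FGF2 is held in the matrix around articular chondrocytes.

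Because the plates mix tissues, *Grem1*-lineage cells were split by their own transcripts. A cell with more unique molecular identifiers (UMIs, each marking 1 cDNA molecule) of *Clu*, *Cilp* and *1500015O10Rik* together than of *Cnmd* was called articular-side, and any other cell *Cnmd*-side. No FGF gene enters this rule. Of 768 *Grem1*-lineage wells, 684 had at least 350 detected genes and were kept, 414 articular-side (43 to 68 per plate) and 270 *Cnmd*-side (26 to 40 per plate). Of 162 *Lepr*-lineage wells, 160 were kept by the same minimum, counted there over all genes listed for that lineage and not only the shared genes. Median UMIs per cell were 1217, 2218.5 and 1222 in the 3 groups, of which only 505 per *Lepr*-lineage cell fell on the shared genes, and the 2 tables shared 0 cell names. A list of 10 articular markers summed to 40334–52128 CPM (UMIs scaled to a common library total) on articular-side plates and 4239–7357 on *Cnmd*-side plates, and 6 growth plate markers to 6647–17548 and 32602–44948. These lists hold the genes of the split, and *Col10a1*, a marker of hypertrophic chondrocytes, went the other way with 5389 and 1485 CPM, so the sides are named here by the rule and not as tissues. In the *Lepr* lineage all 6 marrow stromal markers reached 50 CPM (sum 26559–37512 CPM), but haematopoietic markers summed to 5489–7302 CPM in spite of the sort, and 12 cells held 10 or more such UMIs.

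*Fgfr1*, *Fgfr2* and *Fgfr3* encode receptor kinases, and *Fgfrl1* a receptor without the kinase. The sides differed most in *Fgfr2*, which was several-fold higher on the articular side, while *Fgfr3* was carried by both. *Fgfr2* (chromosome 7, 130162451 to 133123350, minus strand; GRCm38 throughout) had 201 CPM on the lowest articular-side plate, a median of 369 and 530 on the highest. On the *Cnmd* side the lowest, median and highest plates had 22.2, 39.3 and 62.1 CPM. The plates of the 2 sides did not overlap, and edgeR's quasi-likelihood test across all genes gave a log2 fold change of 3.15 ± 0.27 (SE, adjusted p = 9.96e-09, n = 8 plates a side). CPM here and below are scaled by edgeR's TMM factors unless called unscaled. Of all 1071 genes that passed the filter on low counts, 19.5% were called higher and 21.6% lower on the articular side, and of the 9 FGF genes 4 passed it and 2 were called higher, none lower. *Fgfr2* had 10 to 31 UMIs on each articular-side plate and 2 to 4 on each *Cnmd*-side plate. It passed the filter through the articular side alone and could hardly be called lower there, so its count is no support by itself. The fit without the filter, given below, also called *Fgfr2* higher on the articular side. All 8 plates lay above all 8 others for 7.84% of the 1071 genes. In exons, *Fgfr2* shares 314 bases with *Ctbp2* on the same strand, and *Ctbp2* itself had 18 UMIs on the articular side and 21 on the *Cnmd* side.

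*Fgfr3* (chromosome 5, 33721674 to 33737068, plus strand) did not separate the sides. Articular-side plates ran from 141 to 573 CPM with a median of 337, and *Cnmd*-side plates from 288 to 575 with a median of 350. The ranges overlapped almost whole, and edgeR gave a log2 fold change of −0.05 ± 0.24 (adjusted p = 0.886). The size of its difference depended on the scale, and the direction varied with the plates used. Within a plate the articular side had 11.4 ± 93.7 CPM less (SD of the 8 differences), with 4 of 8 plates higher (p = 0.727 by a two-sided sign-flip test, exact over the plates), whereas without TMM factors it had 111 ± 97.3 CPM less on 8 of 8 plates (p = 0.00781, the smallest that 8 plates allow). In separate fits of fewer plates, each with its own filter and TMM factors, the articular side was lower by 121 CPM on plates 1, 2 and 4. It was higher by 60.1 CPM on plates 5 to 9, although in the fit of all 8 plates plate 7 had 573 against 575 CPM.

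*Fgfr1* (chromosome 8, 25513654 to 25575718, plus strand) was the receptor with the most UMIs on both sides. In the *Lepr* lineage it led only on plate 2 (79 UMIs against 15 of *Fgfr2*, 47 of the 79 in 1 cell), and plate 1 held 22 of *Fgfr1* and 26 of *Fgfr2*. Articular-side plates had 469 CPM at the lowest, 803 at the median and 1185 at the highest, and *Cnmd*-side plates 405, 482 and 916. Only 2 articular-side plates lay above every *Cnmd*-side plate. The test called *Fgfr1* higher on the articular side by 0.54 ± 0.20 on the log2 scale (edgeR, adjusted p = 0.0355, and 0.0124 with the plate as a replicate block). In the fit without the block the call was lost without plate 2, 4, 6, 7 or 9 (adjusted p 0.0624 to 0.0952). Without TMM factors the fold change was 0.19 (adjusted p = 0.516). *Fgfrl1* (chromosome 5, 108692382 to 108706924, plus strand) had 216 ± 64.1 CPM on the articular side and 288 ± 81.0 on the *Cnmd* side (SD, n = 8). Its log2 fold change of −0.40 ± 0.23 missed the threshold (edgeR, adjusted p = 0.165) and passed it without TMM factors (−0.74, adjusted p = 0.012).

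**Figure D1:**
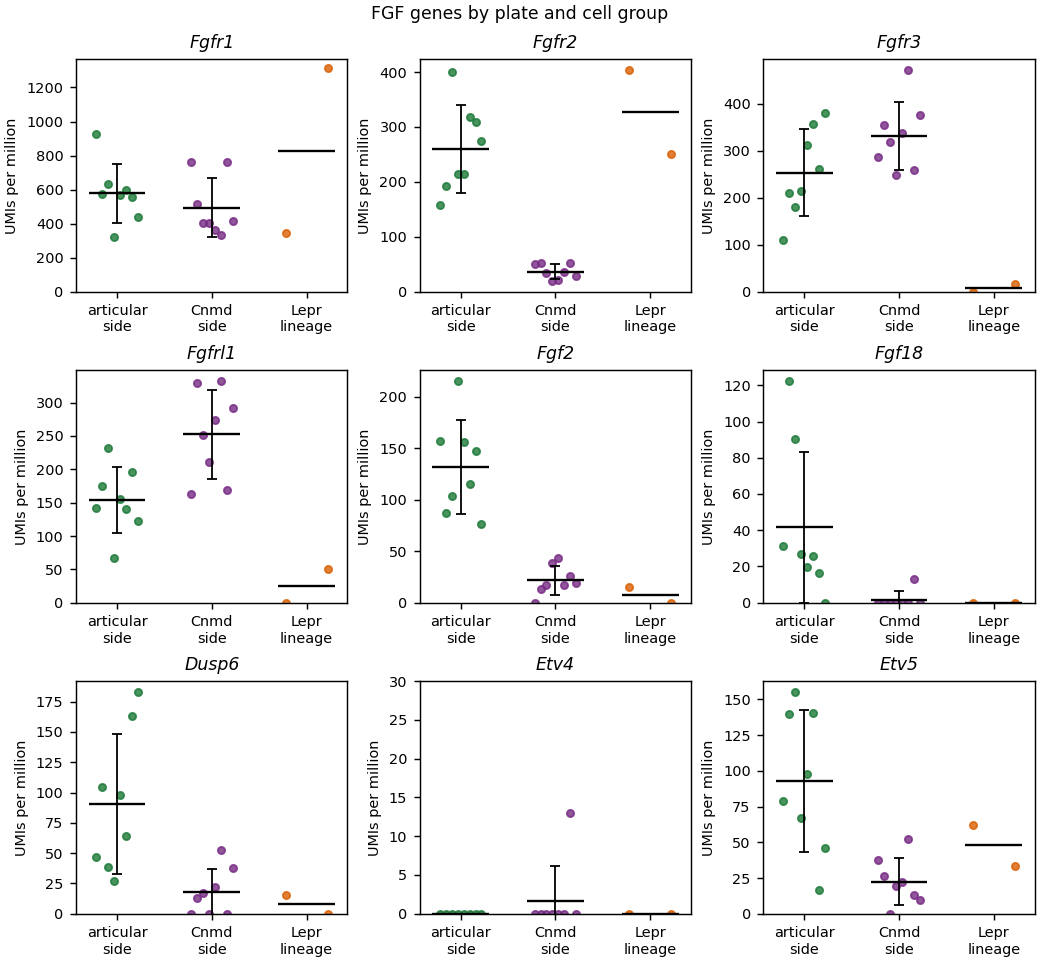
Unscaled CPM of the 9 FGF genes by plate for articular-side cells, *Cnmd*-side cells and *Lepr*-lineage cells. Points are plates, bars the mean and SD, with a mean alone for the 2 *Lepr*-lineage plates. *Fgfr2*, *Fgf2*, *Dusp6* and *Etv5* are higher on the articular side on 8 of 8 plates, and *Fgfr3* is near 0 on both *Lepr*-lineage plates.

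The share of each kinase among the UMIs of *Fgfr1*, *Fgfr2* and *Fgfr3* does not depend on the scaling of libraries. *Fgfr2* made up 23.9 ± 6.23% of them on articular-side plates (13.2 to 33.0%) and 4.13 ± 0.967% on *Cnmd*-side plates (2.86 to 5.71%). *Fgfr3* made up 23.6 ± 8.28% (9.21 to 34.7%) and 39.7 ± 10.7% (24.1 to 56.2%). The *Fgfr2* share was thus higher by 19.8 ± 6.48 percentage points on 8 of 8 plates, and the *Fgfr3* share lower by 16.1 ± 9.19 points on 8 of 8 (exact sign-flip permutation test, p = 0.00781 for each and 0.0117 adjusted over the 3 shares). The *Fgfr1* share was 52.5 ± 11.7% and 56.2 ± 10.4%, a difference of −3.72 ± 11.4 points (exact p = 0.398). Since shares sum to 100%, a gain in one is a loss in the others.

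**Figure D2:**
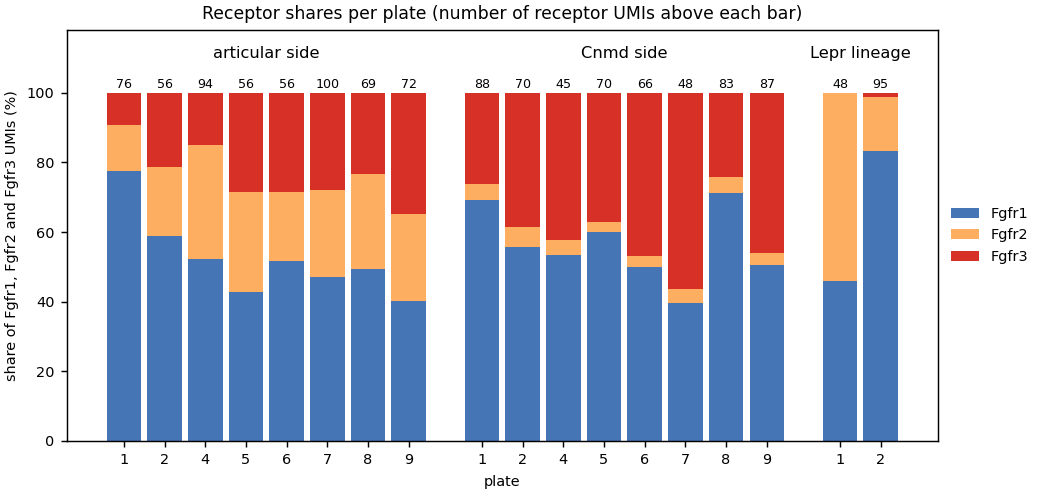
Percent of *Fgfr1*, *Fgfr2* and *Fgfr3* UMIs (stacked bars) on each plate and side, with the number of receptor UMIs above each bar. The *Fgfr2* part is 13.2 to 33.0% of the articular-side bars and 2.86 to 5.71% of the *Cnmd*-side bars, and *Fgfr3* is 0% and 1.05% of the *Lepr*-lineage bars.

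By unscaled CPM the articular side ranked *Fgfr1* (577), *Fgfr2* (260), *Fgfr3* (253) and *Fgfrl1* (154), and the *Cnmd* side *Fgfr1* (494), *Fgfr3* (332), *Fgfrl1* (252) and *Fgfr2* (36.5). On the articular side the first step held, with *Fgfr1* above *Fgfr2* by 317 ± 204 CPM on 8 of 8 plates (exact sign-flip permutation test, p = 0.0156 adjusted over 6 pairs). *Fgfr2* and *Fgfr3* there did not differ beyond their spread (6.95 ± 104 CPM, adjusted p = 0.891), nor did *Fgfr3* and *Fgfrl1* (99.6 ± 113, adjusted p = 0.075). On the *Cnmd* side *Fgfr3* was above *Fgfrl1* (79.7 ± 39.2, adjusted p = 0.0156) and *Fgfrl1* above *Fgfr2* (216 ± 70.7, adjusted p = 0.0156), while *Fgfr1* and *Fgfr3* were not told apart (162 ± 223, adjusted p = 0.075). Since each UMI marks 1 cDNA molecule, this order by UMIs is the main one. As an alternative, per kilobase of annotated exon, the order changed. The short *Fgfrl1* then had 90.7 unscaled CPM per kilobase on the *Cnmd* side, above *Fgfr1* and *Fgfr3* (46.4 for the latter) and *Fgfr2* (3.53), and on the articular side *Fgfr1* had 58.5, *Fgfrl1* 55.2, *Fgfr3* 35.4 and *Fgfr2* 25.2.

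In single cells most receptor combinations were sparse. Of 414 articular-side cells, 24.6% held UMIs of *Fgfr1* alone among the kinases, 48 cells of *Fgfr3* alone, 47 of *Fgfr2* alone, and 137 (33.1%) of none. Of 270 *Cnmd*-side cells, 73 (27.0%) held *Fgfr1* with *Fgfr3*, 60 *Fgfr1* alone, 59 *Fgfr3* alone, 2 *Fgfr2* alone and 57 (21.1%) none. *Cnmd*-side cells were deeper, so cells were also thinned to 796 UMIs each, which left out 60 articular-side and 8 *Cnmd*-side cells as too shallow. At that depth *Fgfr3* was detected in 18.4% of articular-side and 21.4% of *Cnmd*-side cells, against 23.9% and 51.5% before thinning. *Fgfr2* was detected in 16.7% and 4.58% (24.2% and 7.78% before), and *Fgfr1* in 29.1% and 29.4% (40.3% and 55.2% before). Thinned to 272 UMIs a cell on the shared genes, a depth that 144 *Lepr*-lineage cells reached, *Fgfr3* was detected in 8.45% of articular-side, 7.78% of *Cnmd*-side and 0 of 144 *Lepr*-lineage cells (Clopper-Pearson upper limit 2.53%), and in 1 of 160 of the last before thinning. The intervals drawn around these shares cover counting error only.

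**Figure D3:**
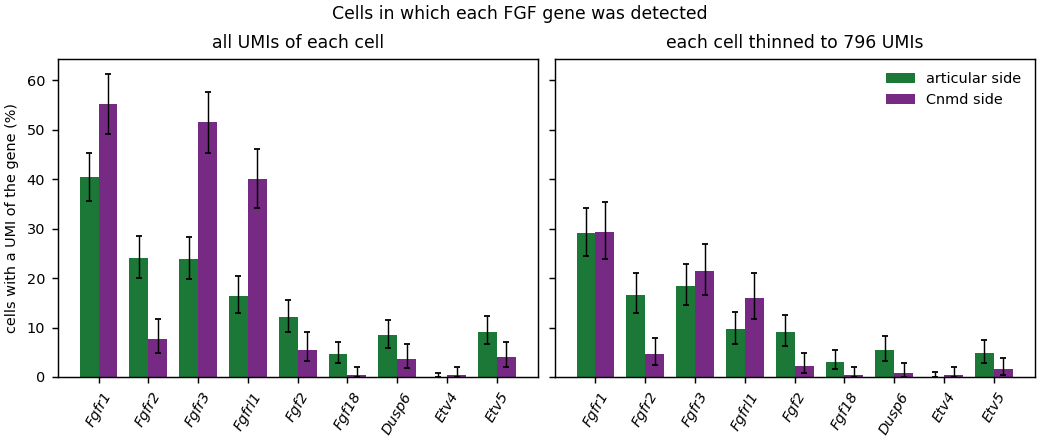
Percent of cells with at least 1 UMI of each gene, with all UMIs and after thinning to 796 UMIs a cell. Bars are 95% Clopper-Pearson intervals, and the *Fgfr3* gap between the sides shrinks from 23.9% against 51.5% to 18.4% against 21.4%, while *Fgfr2* stays at 16.7% against 4.58%.

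The 2 ligands were found mainly on the articular side. *Fgf2* (chromosome 3, 37348346 to 37410108, plus strand) had 113 CPM on the lowest articular-side plate, a median of 193 and 313 on the highest. *Cnmd*-side plates had from 0 to 53.4 CPM with a median of 22.0, so the sides did not overlap, as they did not for 1.03% of all 12510 genes with the articular side above. The paired difference was 163 ± 59.3 CPM on 8 of 8 plates (exact sign-flip permutation test, p = 0.00781). *Fgf2* did not pass the filter on low counts, and a fit without the filter gave a log2 fold change of 2.61 ± 0.42 (edgeR, adjusted p = 6.66e-08). *Fgf2* exons overlap those of *Nudt6* on the other strand by 640 bases, and whether counting used the strand is not stated, so reads of the pair cannot be told apart there.

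*Fgf18* (chromosome 11, 33117430 to 33147400, minus strand) was rarer, with 22 UMIs on the articular side, 1 on the *Cnmd* side and 0 in the *Lepr* lineage. Articular-side plates ran from 0 to 158 CPM with a median of 39.6, and *Cnmd*-side plates held 0 on 7 and 15.5 CPM on the other one. It was higher on 7 of 8 plates by 54.4 ± 55.2 CPM (exact sign-flip permutation test, p = 0.0156), and without the filter by 3.84 ± 0.85 on the log2 scale (edgeR, adjusted p = 0.000279). The ratio of pooled unscaled CPM was 27.1, with a counting interval from 4.38 to 1119 that only 1 UMI sets.

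The ERK readouts *Dusp6* and *Etv5* were higher on the articular side, like the ligands and unlike *Fgfr3*. *Dusp6* (chromosome 10, 99263231 to 99267489, plus strand) had from 39.1 to 270 CPM on articular-side plates with a median of 119, and from 0 to 63.9 with a median of 15.6 on *Cnmd*-side plates, so that 5 articular-side plates lay above every *Cnmd*-side plate. *Etv5* (chromosome 16, 22381309 to 22439719, minus strand) had from 22.6 to 225 CPM with a median of 126, and from 0 to 63.9 with a median of 24.3, and here 7 plates lay above. Within plates *Dusp6* was higher on the articular side by 109 ± 80.6 CPM and *Etv5* by 106 ± 66.2 CPM, each on 8 of 8 plates (exact sign-flip permutation test, p = 0.00781 for each). Fits without the filter gave log2 fold changes of 2.42 ± 0.50 for *Dusp6* (edgeR, adjusted p = 8.08e-05) and 2.20 ± 0.47 for *Etv5* (adjusted p = 0.000161). *Etv4* (chromosome 11, 101769742 to 101785371, minus strand) had 0 UMIs on the articular side and 1 on the *Cnmd* side, and 3 UMIs would be 5.66 and 4.60 CPM, so no difference was detectable at this depth.

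Without the filter, 12510 genes were tested, of which 3.05% were called higher on the articular side. Of the 9 FGF genes, 5 were among them (*Fgfr2*, *Fgf2*, *Fgf18*, *Dusp6* and *Etv5*) and none was lower. That fit scales the libraries over many genes with few counts and does not call *Fgfr1* (0.38, adjusted p = 0.37). The same 5 genes kept their paired p-values without TMM factors. Cells of other types were also left out, by 10 or more haematopoietic UMIs (3 articular-side and 7 *Cnmd*-side cells) or osteoblast UMIs at or above chondrocyte UMIs (6 and 2). The paired difference was then 347 CPM for *Fgfr2*, 173 for *Fgf2*, 114 for *Dusp6* and 113 for *Etv5*. Cells with fewer osteoblast UMIs stayed in. Over all kept cells osteoblast markers summed to 929–48689 unscaled CPM on articular-side plates and 602–20501 on *Cnmd*-side plates. Of 5 endothelial markers, 4 were at 0 on both sides.

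**Figure D4:**
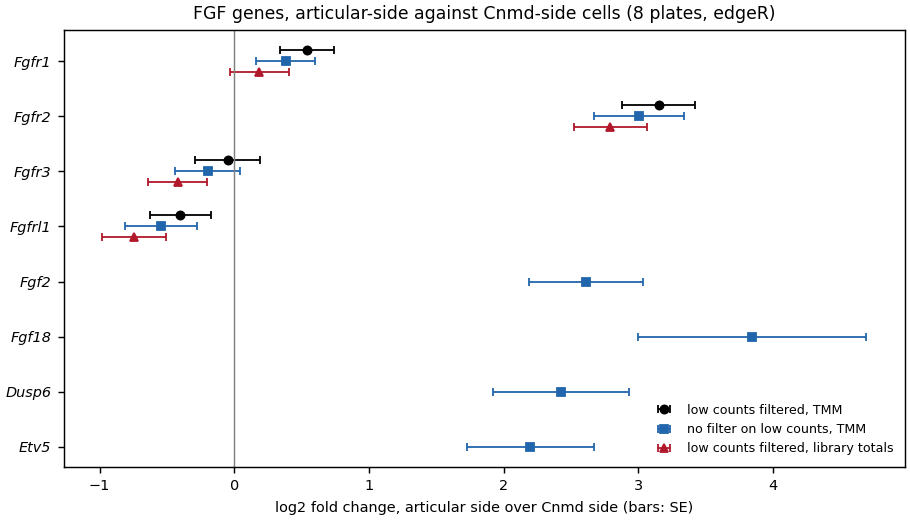
Log2 fold change of 8 FGF genes, articular side over *Cnmd* side, with SE, for the filtered fit with TMM factors, the fit without the filter and the fit marked library totals. The last has no TMM factors, and its totals hold only the genes that passed the filter. *Fgfr2* sits at 3.15 and *Fgfr3* at −0.05 in the filtered fit, and *Fgf2*, *Fgf18*, *Dusp6* and *Etv5* between 2.20 and 3.84 without the filter.

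Promoter sequence is shown for the genes that were higher on the articular side, since ETS factors such as ETV5 bind a GGAA core. RefSeq promoters (GRCm38.p6) matched 7 of the 9 genes. The 250 bases before an annotated start are given 5′ to 3′ on the gene's strand where the window holds no annotated exon, with each GGAA or its complement TTCC in capitals. The windows are chr7:130266809-130267058 (minus) for *Fgfr2*, chr10:99262981-99263230 (plus) for *Dusp6*, chr11:33147401-33147650 (minus) for *Fgf18* and chr16:22438369-22438618 (minus) for *Etv5*. Those of *Fgfr2* and *Etv5* lie inside the annotated span of the gene, before a start other than its outermost one.
Fgfr2: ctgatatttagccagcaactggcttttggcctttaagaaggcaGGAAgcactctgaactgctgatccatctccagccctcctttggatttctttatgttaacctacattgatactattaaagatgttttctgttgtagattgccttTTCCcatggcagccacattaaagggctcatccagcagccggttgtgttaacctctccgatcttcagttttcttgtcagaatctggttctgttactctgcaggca
Dusp6: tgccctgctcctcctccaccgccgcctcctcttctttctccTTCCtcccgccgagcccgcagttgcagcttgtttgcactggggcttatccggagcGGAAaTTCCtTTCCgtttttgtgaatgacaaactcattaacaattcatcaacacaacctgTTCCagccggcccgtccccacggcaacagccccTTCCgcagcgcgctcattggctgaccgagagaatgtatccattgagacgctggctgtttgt
Fgf18: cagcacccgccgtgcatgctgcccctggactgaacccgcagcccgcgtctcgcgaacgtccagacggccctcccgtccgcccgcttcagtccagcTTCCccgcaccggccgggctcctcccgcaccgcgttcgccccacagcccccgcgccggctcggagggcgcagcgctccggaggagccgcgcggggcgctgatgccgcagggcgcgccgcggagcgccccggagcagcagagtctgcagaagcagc
Etv5: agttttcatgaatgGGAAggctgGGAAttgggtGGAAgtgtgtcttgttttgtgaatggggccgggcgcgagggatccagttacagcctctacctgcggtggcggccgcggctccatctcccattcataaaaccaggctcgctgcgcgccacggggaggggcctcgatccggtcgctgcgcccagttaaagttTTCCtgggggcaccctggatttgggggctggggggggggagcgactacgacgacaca

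*Dusp6* held 6 matches, *Etv5* 4, *Fgfr2* 2 and *Fgf18* 1. Such a short core is common. It was in 93.4% of all 32851 promoter windows of this length with a median of 3 matches, and 8.69% of windows held 6 or more, as *Dusp6* did. The longer ETS motif CCGGAAGT, searched on both strands and overlapping the core, had 0 matches in the 4 windows (2.88% of all windows hold it), and so had the AP-1 motif TGANTCA (6.75% of all). The GC box GGGCGG had 1 match in *Fgf18* and 0 in the others (32.7% of all). These matches describe the letters and say nothing of binding.

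Whether *Dusp6*, *Etv4* and *Etv5* go with *Fgfr3* within a side was asked in 3 ways. First, UMIs were summed per plate for cells with and without an *Fgfr3* UMI, 99 and 315 on the articular side and 139 and 131 on the *Cnmd* side. *Dusp6* was found in 7 of 99 articular-side cells with *Fgfr3* (7.07%) and in 28 of 315 without (8.89%), and *Etv5* in 7 of 99 and 31 of 315 (9.84%). On the *Cnmd* side *Dusp6* was found in 5 of 139 cells with *Fgfr3* (3.60%) and 5 of 131 without (3.82%), and *Etv5* in 5 of 139 (3.60%) and 6 of 131 (4.58%). In all 4 pairs the share was no higher in cells with *Fgfr3*, although these were the deeper ones (median 1389 against 1161 UMIs, and 2407 against 1960).

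Per plate, articular-side cells with *Fgfr3* had 74.8 ± 111 unscaled CPM of *Dusp6* and those without 94.5 ± 44.9, a difference of −19.6 ± 85.6 with 2 of 8 plates higher (exact sign-flip permutation test, p = 0.477). For *Etv5* the values were 50.9 ± 57.6 and 106 ± 68.5, a difference of −55.3 ± 93.1 (exact p = 0.117). On the *Cnmd* side the differences were −11.3 ± 34.0 for *Dusp6* (exact p = 0.438) and −12.3 ± 35.1 for *Etv5* (exact p = 0.406). No readout was detectably higher in cells with *Fgfr3* on either side, and with these spreads modest differences in either direction could not have been seen. In fits across all genes *Dusp6*, *Etv4* and *Etv5* did not pass the filter on low counts, so those fits did not test them. Among the genes that passed, edgeR called 0 of 399 on the articular side (33 at an unadjusted p under 0.05) and 0 of 546 on the *Cnmd* side (31). DESeq2 called 1, the matrix gene *Comp* (0.56 ± 0.14, adjusted p = 0.0179), and 0. *Fgfr1* had −0.30 ± 0.29 and −0.37 ± 0.25 (adjusted p = 0.824 and 0.891).

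**Figure D5:**
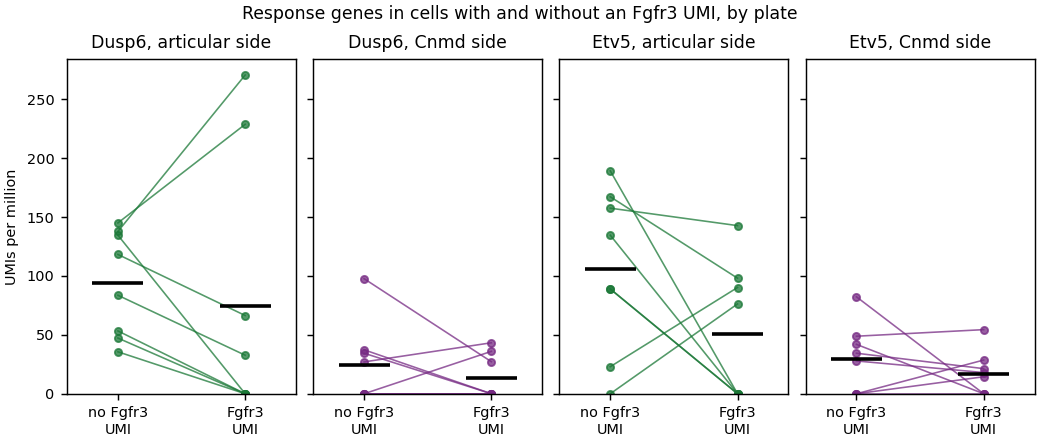
Unscaled CPM of *Dusp6* and *Etv5* on each plate in cells without and with an *Fgfr3* UMI, for the articular side and the *Cnmd* side. Lines join the same plate and black bars are means, which on the articular side are 94.5 and 74.8 for *Dusp6* and 106 and 50.9 for *Etv5*.

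Second, joint detection in the same cell was measured as a log odds ratio per plate after thinning every cell of a side to 749 (articular) or 1222 (*Cnmd*) UMIs. *Fgfr3* with *Dusp6* gave 0.49 ± 0.44 on the articular side and 0.61 ± 0.46 on the *Cnmd* side (exact sign-flip permutation test over 8 plates, p = 0.0625 for each after adjustment over the 4 pairs that *Etv4* left). With *Etv5* the values were 0.27 ± 0.92 (adjusted p = 0.445) and 0.39 ± 0.46 (adjusted p = 0.0833). None passed the threshold, and the measure, with 0.5 added to each count, lies above 0 for independent genes when few cells carry one of them. With the value expected for independent detection subtracted, *Dusp6* had −0.17 on the articular and −0.012 on the *Cnmd* side, and *Etv5* −0.23 and −0.040.

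Last, plates were compared. Over the 8 *Cnmd*-side plates *Dusp6* and *Fgfr3* CPM went together (Pearson r = 0.983, exact permutation p = 0.000595; Spearman's rho = 0.952, p = 0.00149), the only one of 12 relations of a kinase with a readout that passed after adjustment (0.00714 for r). The *Cnmd*-side plates 7 and 9, highest in *Fgfr3* with 575 and 453 CPM, held 3 and 4 *Dusp6* UMIs, and plates 5, 1 and 8, lowest with 288, 296 and 311 CPM, held none. This relation rests on 11 *Dusp6* UMIs, both values of a plate share its total, and it was examined after the values had been seen. Without the 2 plates farthest from the median *Fgfr3* it was r = 0.946 over 6 plates, and with unscaled CPM 0.95. On the articular side, with 46 *Dusp6* UMIs, it was 0.58 (p = 0.135; rho = 0.55, p = 0.171). *Etv5* with *Fgfr3* gave r = 0.06 (p = 0.891; rho = −0.02, p = 0.977) on the articular side and 0.56 (p = 0.21; rho = 0.19, p = 0.665) on the *Cnmd* side. No correlation was computed within plates 1, 2 and 4 or plates 5 to 9, which are fewer than the 6 plates required here. Across *Cnmd*-side plates 5, 8, 6, 9 and 7, ordered by *Fgfr3* (288, 311, 413, 453 and 575 CPM), *Dusp6* had 0, 0, 26.7, 45.3 and 63.9 CPM. These are 0, 0, 2, 4 and 3 UMIs. Across plates 1, 4 and 2, ordered likewise (296, 342 and 358 CPM), *Dusp6* had 0, 18.0 and 13.3 CPM, so the order did not hold there.

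The *Lepr* lineage carried *Fgfr1* and *Fgfr2* and almost no *Fgfr3*. This comparison uses all kept *Grem1*-lineage cells of a plate, so it shares them with the comparison of sides. *Lepr*-lineage cells also came from another tissue, with another collagenase and gate, and lineage and preparation cannot be told apart. *Fgfr3* had 0 and 14.0 CPM on the 2 *Lepr*-lineage plates (1 UMI in all) and 220 to 536 on *Grem1*-lineage plates with a median of 313. It was lower by edgeR (log2 fold change −5.47 ± 0.73, adjusted p = 5.13e-05), and the ratio of pooled unscaled CPM, *Grem1* over *Lepr*, was 36.5 with a counting interval from 6.51 to 1445. Of 2944 genes tested, 16.8% were called lower and 12.2% higher in the *Lepr* lineage. Of the 9 FGF genes, 6 passed the filter and 3 were lower (*Fgfr3*, *Fgfrl1* and *Fgf2*), none higher. These 3 had at most 3 UMIs on a *Lepr*-lineage plate and passed the filter through the *Grem1* lineage alone. Genes that enter that way could hardly be called higher in the *Lepr* lineage, so their count is no support by itself.

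*Fgfrl1* was the next of these, with 0 and 42.1 CPM against 246 ± 49.9 (log2 fold change −3.51 ± 0.61, edgeR, adjusted p = 0.00049). *Fgf2* had 13.3 and 0 CPM against 84.8 ± 30.1 (−3.44 ± 0.91, adjusted p = 0.00923), a call that DESeq2 did not make (adjusted p = 0.0579) and that was lost without *Lepr*-lineage plate 2 (0.0944). *Fgfr2* had 345 and 210 CPM against 167 ± 68.1 and was not called (0.74 ± 0.40, adjusted p = 0.168), but was without TMM factors (1.31, adjusted p = 0.0139). *Etv5* had 53.1 and 28.1 CPM against 65.6 ± 38.3 (−0.65 ± 0.74, adjusted p = 0.543). Without the filter *Dusp6*, with 1 UMI, was lower too (−3.08, edgeR, adjusted p = 0.0476), so that 4 of the 9 genes were called lower, beside 4.74% of 13283. *Fgf18* and *Etv4* had 0 UMIs, and 3 UMIs would be 24.1 CPM in the *Lepr* lineage, about the *Grem1*-lineage mean of *Fgf18* (23.2 CPM).

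*Fgfr1* had 292 CPM on *Lepr*-lineage plate 1 and 1108 on plate 2, against 450–880 on *Grem1*-lineage plates (log2 fold change 0.16 ± 0.37, edgeR, adjusted p = 0.783). On plate 2, 1 cell with 21187 UMIs held 47 of the 79 *Fgfr1* UMIs, together with 256 UMIs of *Mpo* and 235 of *Elane*, both neutrophil granule genes. Without haematopoietic marker cells the fold change was −0.52, and without plate 2 −1.15 (adjusted p = 0.0782), so no direction is given for *Fgfr1*.

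Among kinase UMIs, *Fgfr3* made up 0% and 1.05% on the *Lepr*-lineage plates and 18.3 to 40.9% on *Grem1*-lineage plates (exact two-sided permutation test, p = 0.0222, the smallest that 2 against 8 plates allow, and 0.0667 adjusted over 3 shares). *Fgfr2* made up 54.2% and 15.8% against 8.54 to 23.7% (exact p = 0.0667). With haematopoietic marker cells left out the *Fgfr2* shares were 53.8% and 29.5%, and no *Fgfr3* UMI was left. With the cells of other types left out in both lineages, the differences were 27.0 points for *Fgfr2* and −30.9 points for *Fgfr3* (exact permutation test, p = 0.0222 for each and 0.0333 adjusted over 3 shares), an alternative added after the data were seen. Of the 160 cells, 21 held *Fgfr1* alone, 18 *Fgfr2* alone, 12 both, and 108 (67.5%) no kinase UMI.

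The rest of the pathway was measured through 3 lists. Of 16 other FGF ligands only *Fgf7*, a stromal ligand of the epithelial form of FGFR2, passed the filter in either comparison. It had 140 and 199 CPM in the *Lepr* lineage (25 UMIs against 3 in the *Grem1* lineage) and was higher there by 5.39 ± 0.69 on the log2 scale (edgeR, adjusted p = 3.19e-05). *Fgf7* passed the filter through the *Lepr* lineage alone, so it could hardly be called lower there. Without the filter the value was 5.18 ± 0.79 (edgeR, adjusted p = 3.93e-09). Of 13 other receptor, binding and docking genes, 5 passed the filter between lineages (*Ext1* and *Ext2*, which build heparan sulphate, *Fibp*, *Cbl* and *Gab1*) and none was called. Between sides none of the 13 passed the filter, and none was called without it. *Fgfr4*, the remaining receptor kinase, had 4 UMIs in the *Grem1* lineage and 0 in the *Lepr* lineage.

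Of 9 other ERK-responsive genes, 4 were tested between lineages and 3 were lower in the *Lepr* lineage: the immediate early gene *Egr1* (−3.21 ± 0.55, edgeR, adjusted p = 0.000438), the nuclear ERK phosphatase *Dusp5* (−2.65 ± 0.83, adjusted p = 0.0238) and the cyclin gene *Ccnd1* (−6.09, with 0 UMIs there). *Dusp5*, with 4 UMIs in the *Lepr* lineage, and *Ccnd1* passed the filter through the *Grem1* lineage alone. The fourth, *Fosl1*, had 94.8 and 59.6 CPM on average and was not called. Between sides 2 of these genes went the other way from *Dusp6*. *Dusp5* was lower on the articular side (94.9 ± 57.3 against 250 ± 139 CPM; −1.51 ± 0.32, edgeR without the filter, adjusted p = 0.000119), and so was *Ccnd1* (34.7 ± 36.9 against 103 ± 47.2 CPM; −1.69 ± 0.47, adjusted p = 0.00926), beside 2.59% of all genes in that fit. *Egr1* had 5799 ± 2058 and 3606 ± 1676 CPM, which was not called by edgeR (0.69 ± 0.30, adjusted p = 0.0734), but was by DESeq2 (0.0473) and with the plate as a replicate block (0.000196).

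Over the 18 sums of a plate and cell group, the genes whose log2 CPM ranked most like *Fgfr3* among 2590 genes were *Fn1* (Spearman's rho 0.84), *Cd2ap* (0.82) and *Cobll1* (0.80). For *Dusp6* they were *Ackr3* (0.83), *Bmp2* (0.83) and *Elp6* (0.83), and for *Fgfr1*, *Fkbp8* (0.67), *D8Ertd738e* (0.64) and *Chp1* (0.64). These sums share plates and cell groups, so the values are a description. The genes compared come from the shared list only, which appears to be cut off by alphabet, so genes with later names were not searched.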

How the data were processed

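The data are UMI counts from 8 plates of *Grem1*-lineage cells and 2 of *Lepr*-lineage cells. As deposited by the authors these counts are whole numbers for each gene in each cell and have not been normalised. The submitters' processing notes name UMI-tools, STAR, featureCounts, SAMtools, Seurat and mm10, and the paper's methods name Cell Ranger. Only genes listed for both lineages could be compared, 29183 of the 50508 listed for the *Lepr* lineage. They hold 40.9% of the *Lepr*-lineage UMIs, and 1 incomplete row was left out. Every gene named here with a *Grem1*-lineage value has a name that sorts no later than those in Gm. Later names such as *Gpc6*, *Grb2*, *Sdc1* and *Spry1* were listed only for the *Lepr* lineage. The *Grem1*-lineage list thus appears to be cut off by alphabet. Totals, CPM and "all genes" refer to the shared genes unless stated, not to the whole genome. Kept UMIs per *Grem1*-lineage plate were 133289 to 179071.

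For tests, the UMIs of a group's cells were added up by plate (at least 10 cells, or 5 for cells split by *Fgfr3*). Sums were tested with edgeR 4.0.16 (TMM, filterByExpr, quasi-likelihood, Benjamini-Hochberg at 0.05) in R 4.3.3. SEs are approximate. DESeq2 1.42.0 was an alternative. Single values used exact permutation tests (scipy 1.17.1). Sums of the 2 sides deviated together on 8 of 8 plates (r 0.141 to 0.414) and are thus paired by plate, since both sides come from the same plate. The main edgeR fits had no plate term and took the sums as independent. The plate as a replicate block was an alternative, and the sign-flip tests between sides were paired. On simulated counts for the 2 sides (1084 genes), edgeR recovered 79.3% of genes changed by a log2 of 1 and 99.0% of those changed by 2. Sums were simulated as independent, and changed genes were drawn from those that passed the filter. Between sides *Fgf2*, *Fgf18*, *Dusp6*, *Etv4* and *Etv5* did not pass it, so these rates do not cover them. For the lineages (2697 genes) edgeR recovered 6.59% and 52.3%.

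All FGF genes are named. Other pathway genes are named where they passed a test or reached 50 CPM in a group, and *Fgfr4*, *Comp*, *Enpp1*, *Mpo* and *Elane* after their values were seen. The members and lists were chosen with earlier results of these data known. Coordinates are from GENCODE vM21.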

Additional observations from a re-analysis of the deposited data

Results flagged for a closer look

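Of 23 sets of 8 plate values, 2 had a plate apart from the others, which for normally spread values chance gives about 1 time in 20. Both were *Cnmd*-side plate 8, with 15.5 CPM of *Fgf18* and 15.5 CPM of *Etv4*. Each is 1 UMI on a plate where the other 7 had 0. Any such set is flagged, so that rate does not apply to these 2.

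The 84 *Grem1*-lineage wells left out for too few genes held 39804 UMIs, among them 26 of *Fgfr1*, 17 of *Fgfr3*, 10 of *Fgf2*, 7 of *Fgfrl1* and 5 of *Fgfr2*. *Fgf2* was at 251 unscaled CPM in those wells and 71.9 in kept cells, and *Dusp6*, at 48.2 in kept cells, had 0 UMIs.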

How the results depend on the processing

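Alternative values were taken for the counts of called genes, the *Fgfr1* share, the receptor order and joint detection. Of these, 178 kept their direction and side of the threshold, 9 counts moved, 21 values reversed and 4 passed the threshold newly. For fold changes and CPM differences of single genes and the *Fgfr2* and *Fgfr3* shares, 384 kept both. Of the rest, 25 lost the threshold, 15 reversed and 5 passed it newly. The *Fgfr1* fold change between sides lost it under 9 of 20 alternatives. The *Fgfr2* call between sides and the *Fgfr3* and *Fgfrl1* calls between lineages held under all 20 alternatives run. Between sides 440 of 1071 genes were called, 706 without the filter, 235 on plates 1, 2 and 4 alone, 342 on plates 5 to 9 alone and 511 with the plate as a replicate block. Without TMM factors, on totals of the genes that passed the filter, the split of 209 higher and 231 lower became 117 and 415. The median of all genes was shifted by −0.38 on the log2 scale. Between lineages 853 were called (358 higher, 495 lower, and 773 and 288 on such totals, with the median shifted by 0.45), and 529 to 850 with 1 plate left out. With plates 1 and 2 of each lineage alone it was 489 with a replicate block and 451 without. Those numbers mark no shared mouse.

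The *Fgfr3* log2 fold change between sides reversed to 0.049 without the gene minimum, to 0.23 on plates 5 to 9, and ran from −0.12 to 0.073 with 1 plate left out. Its CPM difference reversed to 12.7 and 60.1, and ran from −30.7 to 20.6. *Fgfr1* between lineages reversed to −0.064 without the filter, −0.18 with the replicate block and −0.52 without haematopoietic marker cells, and ran from −1.15 to 0.73 with 1 plate left out. Among cells split by *Fgfr3*, the 0 calls became 34 (articular) and 20 (*Cnmd*) without the filter, 1 with DESeq2 (articular) and 1, *Enpp1* (−0.89, adjusted p = 0.0319), with the replicate block (*Cnmd*). None was an FGF gene. *Fgfrl1* there ran from −0.34 to 0.016 with 1 plate left out.

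In the order of receptors, *Fgfr2* minus *Fgfr3* on the articular side reversed to −11.2 CPM without the gene minimum and −10.2 per kilobase, and ran from −23.4 to 23.2 with 1 plate left out. Per kilobase *Fgfr3* minus *Fgfrl1* reversed to −19.9 (articular) and −44.3 (*Cnmd*). With 1 plate left out it ran from 76.8 to 121 (articular), and *Fgfr1* minus *Fgfr3* (*Cnmd*) from 113 to 205.

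The joint detection values reversed to −0.19 (articular *Dusp6*), −0.036 (articular *Etv5*), −0.16 (*Cnmd* *Dusp6*) and −0.14 (*Cnmd* *Etv5*) without thinning. As Spearman's rho they were −0.035, −0.036, −0.0051 and −0.0078. Less the expected value they were −0.17, −0.23, −0.012 and −0.040, and −0.35, −0.19, −0.20 and −0.13 without thinning. Without the gene minimum articular *Dusp6* (0.59) and *Cnmd* *Etv5* (0.64) passed the threshold (adjusted p = 0.0469). The cause of these changes was not tested.

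Depth limits the readouts: *Dusp6*, *Etv5*, *Fgf2* and *Fgf18* have 0 to 70 UMIs a group, *Etv4* 1 in all, and no receptor kinase was detected in 21.1% (*Cnmd* side), 33.1% (articular side) and 67.5% (*Lepr* lineage) of cells. The cut left 25 cells within 2 UMIs of it. The fits without TMM factors, cells of other types left out and the subtraction of expected values were chosen after the data were seen.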

Other observations

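Of 21 further genes of the pathway listed only for the *Lepr* lineage, 7 reached 50 unscaled CPM over all genes of that table. The heparan sulphate carriers *Sdc1* (105 CPM), *Sdc4* (92.0), *Sdc2* (78.9) and *Gpc6* (59.2) and the adaptor *Grb2* (88.7) were among them. Of the feedback inhibitors, *Spry2* had 69.0 CPM in 15 cells and *Spry1* 42.7 CPM in 12 cells, while *Spred2*, *Spred3* and *Il17rd* had 0 UMIs. *Phlda1* had 176 CPM on plate 1 and 41.2 on plate 2. The co-receptor gene *Klb* had 0 UMIs and *Kl* had 1. No value of them was analysed here for the *Grem1* lineage, so no comparison was made.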
